A study of Mus musculus with 30 samples.

Results

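Nek7, Nlrp3, Pycard, Casp1, Gsdmd and Il1b encode core parts of the NLRP3 inflammasome and its product, and they were followed through 10 lists of genomic regions from mouse microglia, 1 list per genotype and antibody. A region was taken as belonging to a gene if it overlapped the RefSeq span of the gene extended by 10 kb, or if its midpoint had an end of that gene as the nearest protein-coding gene end within 100 kb. The rule gave these 6 genes 37 of the 22399 listed regions: 16 at Nek7, 9 at Nlrp3, 5 at Il1b, 4 at Casp1, 2 at Gsdmd and 1 at Pycard. Of the 37, 18 were in cKO lists and 19 in cWT lists. The genes were picked with these lists known, so all counts per gene and list below are descriptions without a test.

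The NLRP3 inflammasome is a cytosolic complex through which macrophages, microglia included, answer tissue damage and infection. The sensor NLRP3, with the kinase NEK7 bound to it, gathers the adaptor ASC (encoded by Pycard), which recruits and activates caspase-1. Caspase-1 then cuts the precursor of interleukin-1 beta, encoded by Il1b, and gasdermin D, whose freed fragment opens pores in the plasma membrane. NF-kB signalling raises Nlrp3 and Il1b transcription beforehand, a step known as priming.

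The cKO mice were Mir137loxP/loxP;Tmem119-CreERT2 and the cWT mice Mir137+/+;Tmem119-CreERT2, both on C57BL/6J and both given tamoxifen on 7 consecutive days from 7 to 8 weeks of age, with an age of 8 weeks in the labels. Mir137 encodes the microRNA miR-137, and the inducible Cre, carried by both genotypes, is driven from Tmem119, a gene of microglia. The lists hold no measure of how far Mir137 was deleted. CUT&Tag, a method that tethers a transposase through an antibody to the DNA beside its target, was run on sorted microglia, about 100000 per genotype. Targets were Pu.1 (a myeloid transcription factor of the ETS family), H3K27ac (a histone modification found at enhancers and promoters in use), H3K4me3 (a promoter modification), RNA polymerase II, written Pol II, and its serine 5 phosphorylated form, written Pol II Ser5P, which is enriched near gene starts. Each of the 10 groups had 3 replicates in the labels, while the study text mentions 4 mice. Whether replicates came from separate mice is not stated.

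Each list names regions specific to 1 genotype, with no value per replicate and no read depth, and replicate spread is therefore unknown for every difference below. A gene without a listed region may still carry the mark or factor in both genotypes. The protocol gives H3K27ac, Pol II and Pol II Ser5P 1 shared antibody catalogue number, and H3K4me3 and Pu.1 another. No listed region of the 6 genes had a deposited p-value under 0.05: the values ran between 0.0836 and 0.992 with a median of 0.745, against a median of 0.791 and 169 values under 0.05 over all regions. The labels do not say what this p-value tests, and it serves below only to rank a region within its own list. Among markers of the sorted cells, 13 of 15 microglial genes had a listed region (Aif1 and Trem2 had none). Of other cell types, 0 of 6 neutrophil, 1 of 7 neuron, 3 of 5 lymphocyte, 3 of 5 astrocyte, 4 of 7 border macrophage and monocyte, 4 of 6 oligodendrocyte and 4 of 4 endothelial markers had one, against 49.6% of the 21887 protein-coding genes. A gene can receive a region by distance alone, and the part of other cells in the results was not tested.

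Sequences are given for gene starts that listed regions lie on or beside, since those of regions away from promoters were not available. Each runs from 250 bases before to 50 bases after the start, 5′ to 3′ along the gene (RefSeq, GRCm38.p6). The second RefSeq start of Nlrp3, at chr11:59542436-59542735 (plus strand), is shown because a Pu.1 region of the cKO list covers 269 of its 300 bases, and in the same genotype Pol II covers 262 and Pol II Ser5P all 300. Capitals mark the ETS core GAGGAA on either strand (TTCCTC where it lies on the other strand), the core letters of sites bound by Pu.1.
Nlrp3, second start: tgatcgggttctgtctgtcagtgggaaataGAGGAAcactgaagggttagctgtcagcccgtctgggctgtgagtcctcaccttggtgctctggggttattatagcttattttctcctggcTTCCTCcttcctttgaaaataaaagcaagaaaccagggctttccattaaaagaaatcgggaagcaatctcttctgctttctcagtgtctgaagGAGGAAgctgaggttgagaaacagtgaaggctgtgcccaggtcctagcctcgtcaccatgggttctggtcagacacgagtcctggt

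This window held 3 matches to GAGGAA, at bases -220 to -215, -129 to -124 and -36 to -31, with the start base as 0, and all lay within the Pu.1, Pol II and Pol II Ser5P regions of the cKO lists. At least 1 match to these 6 letters was present in 28.3% of the 32851 promoter windows in the table, so its presence is common. The longer form GAGGAAGT, in 3.20% of windows, was not found in either Nlrp3 window. The first RefSeq start of Nlrp3, at chr11:59541319-59541618 (plus strand), is also shown. In the cKO lists, Pol II Ser5P covers its last 37 bases and in the cWT lists Pol II covers its last 96. A Pu.1 region of the cKO list, chr11:59541641-59541977, lies just beyond the window, so letters under that region were not searched. The window itself held no GAGGAA. Capitals mark its match to the NF-kB consensus (both strands, in 8.46% of windows), which lay under no listed region.
Nlrp3, first start: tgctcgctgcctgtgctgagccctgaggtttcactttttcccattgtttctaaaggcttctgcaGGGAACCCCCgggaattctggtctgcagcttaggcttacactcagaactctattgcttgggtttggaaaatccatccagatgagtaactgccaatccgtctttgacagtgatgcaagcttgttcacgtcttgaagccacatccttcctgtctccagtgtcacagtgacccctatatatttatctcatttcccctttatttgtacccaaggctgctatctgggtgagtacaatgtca

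The Casp4 start, at chr9:5308599-5308898 (plus strand), is shown because the 4 regions assigned to Casp1 lie on it or just after it. Capitals mark 3 matches to the NF-kB consensus on either strand, 2 of which overlap each other. No listed region covered any of the 3 in full. The promoter windows of Nek7, Pycard, Casp1 and Il1b held no match to this consensus. The Nek7 start, at chr1:138619708-138620007 (minus strand), is shown because Nek7 held the most regions. It held none of the motifs searched and has no capitals.
Casp4: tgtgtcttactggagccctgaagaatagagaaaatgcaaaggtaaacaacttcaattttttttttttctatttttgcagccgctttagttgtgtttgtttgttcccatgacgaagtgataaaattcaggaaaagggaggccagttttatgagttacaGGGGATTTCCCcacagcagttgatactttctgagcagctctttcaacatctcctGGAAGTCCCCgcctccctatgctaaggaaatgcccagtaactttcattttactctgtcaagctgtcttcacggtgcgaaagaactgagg
Nek7: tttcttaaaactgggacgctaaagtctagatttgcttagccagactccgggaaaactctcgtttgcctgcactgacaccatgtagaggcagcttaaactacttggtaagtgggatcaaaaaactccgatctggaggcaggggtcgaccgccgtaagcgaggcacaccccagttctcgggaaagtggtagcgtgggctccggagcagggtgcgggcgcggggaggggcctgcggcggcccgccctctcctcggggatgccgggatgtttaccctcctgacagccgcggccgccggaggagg

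The microRNA gene flanked by loxP sites in cKO mice is Mir137, on chromosome 3, and its mature 3p form is shown with its seed, bases 2 to 8, in capitals.
mmu-miR-137-3p: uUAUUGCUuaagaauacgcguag

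The DNA letters GCAATAA, which pair with bases 2 to 7 of miR-137-3p followed by A, were in none of the promoter windows of Nek7, Nlrp3, Pycard, Casp1, Il1b and Casp4, and in 2.15% of all windows. The letters AGCAATA, which pair with the whole seed and were added after the files had been seen, were in 2.16% of windows. They occurred once before the first start of Nlrp3, on the other strand, and once before Il1b, on the strand of the gene. In each case they lay under no listed region. These matches are descriptions of letters in a window of 300 bases. Gsdmd was not in the promoter table.

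**Figure D1:**
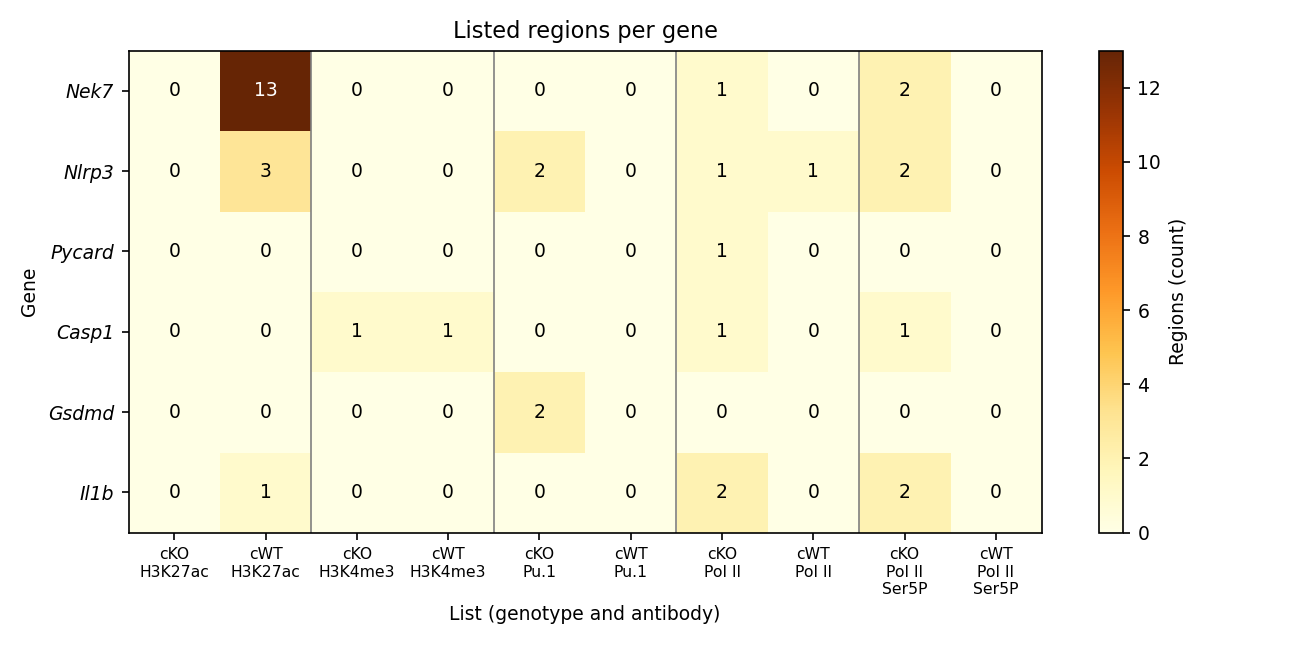
Number of listed regions per gene (rows) in each list (columns, cKO left of cWT for each antibody). The count of 13 for Nek7 in the cWT H3K27ac list is the highest cell, and the cKO H3K27ac column holds 0 throughout.

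Across the 6 genes, as over the whole lists, H3K27ac was listed mainly on the cWT side and polymerase and Pu.1 mainly on the cKO side. H3K27ac regions numbered 0 in the cKO list and 17 in the cWT list. Pol II had 6 and 1, Pol II Ser5P 7 and 0, Pu.1 4 and 0, and H3K4me3 1 and 1, with cKO given before cWT. The shares of the whole lists are given beside those of the 6 genes. The cKO share of H3K27ac regions was 0% at these genes (exact Clopper-Pearson 95% interval 0 to 19.5%, counting error only) and 10.8% over all H3K27ac regions. For Pol II it was 85.7% (42.1 to 99.6%) against 92.2%, for Pol II Ser5P 100% (59.0 to 100%) against 98.0%, and for Pu.1 100% (39.8 to 100%) against 95.9%. For H3K4me3 it was 50% (1.26 to 98.7%) against 61.5%. These intervals treat regions as independent, which regions of 1 gene are not (13 of the 17 H3K27ac regions are at Nek7), and the genes were picked on these lists, so no comparison is drawn from them.

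Read as genes, Pol II of the cKO list was near 5 of the 6 (all but Gsdmd), where 22.4% of protein-coding genes had such a region by the same rule. Pol II Ser5P of the cKO list was near 4 of 6 (Nek7, Nlrp3, Casp1 and Il1b; background 27.9%). H3K27ac of the cWT list was near 3 of 6 (Nek7, Nlrp3 and Il1b; background 26.1%), and H3K27ac of the cKO list near 0 (background 4.31%). Pu.1 was near 2 of 6 in the cKO list (Nlrp3 and Gsdmd; background 4.96%) and 0 in the cWT list (background 0.187%). H3K4me3 was near 1 of 6 in the cKO list and 1 of 6 in the cWT list, both times Casp1 (backgrounds 8.47% and 5.62%). The cWT list of Pol II touched 1 gene, Nlrp3 (background 2.16%), and that of Pol II Ser5P none (background 0.722%). Casp1 counts here through regions at the Casp4 start, and it had 0 regions by the nearest coding gene end alone. By gene span alone, Casp1, Gsdmd and Il1b each had 0. The background counts all protein-coding genes, including those silent in microglia, and the genes were chosen on these lists, so nothing is read from the excess.

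Nek7, the kinase that binds NLRP3, was chosen for its count of H3K27ac regions in the cWT list. Its place among other genes follows from that choice and is only described. Its span is chr1:138483837-138619757 on the minus strand, 135.9 kb long, so the start is at the higher coordinate. It had 0 H3K27ac regions in the cKO list and 13 in the cWT list. No other protein-coding gene reached 13 (0.00457% of them, which is Nek7 alone). The next was Zfhx3 with 12, over a span of 682.3 kb.

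The 13 regions lay from just before the start to 70.3 kb into the gene, with deposited p-values of 0.505 to 0.966. The first, chr1:138622658-138622971, lay 2901 bases before the start. The next, chr1:138619404-138619703, began 54 bases after the start and ended 353 bases after it. Regions at chr1:138617821-138618066 and chr1:138614528-138615056 followed, with midpoints 1.81 and 4.97 kb into the gene. Deeper in the gene came an abutting pair with 0 bases between them, chr1:138606704-138606955 and chr1:138606956-138607324, about 12.6 to 12.9 kb from the start. A narrow region at chr1:138595803-138596051 stood alone at 23.8 kb.

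A second pair, chr1:138576934-138577329 and chr1:138577607-138578042, lay 41.9 to 42.6 kb from the start with 277 bases between its members. Single regions followed at chr1:138571560-138571920 (48.0 kb) and chr1:138559493-138559900 (60.1 kb). The last pair, chr1:138549036-138549947 and chr1:138549986-138550737, lay 69.4 to 70.3 kb from the start, 38 bases apart, and held the 2 widest regions, 912 and 752 bp. Beyond it the remaining 65.2 kb of the gene, up to its far end, held no listed region of any antibody. In all, 11 of the 13 midpoints lay in the promoter-side 50% of the span or before the start. Members of each of the 3 pairs carry the same deposited signal value (8.46, 9.18 and 17.6), and merging regions within 1 kb left 10.

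**Figure D2:**
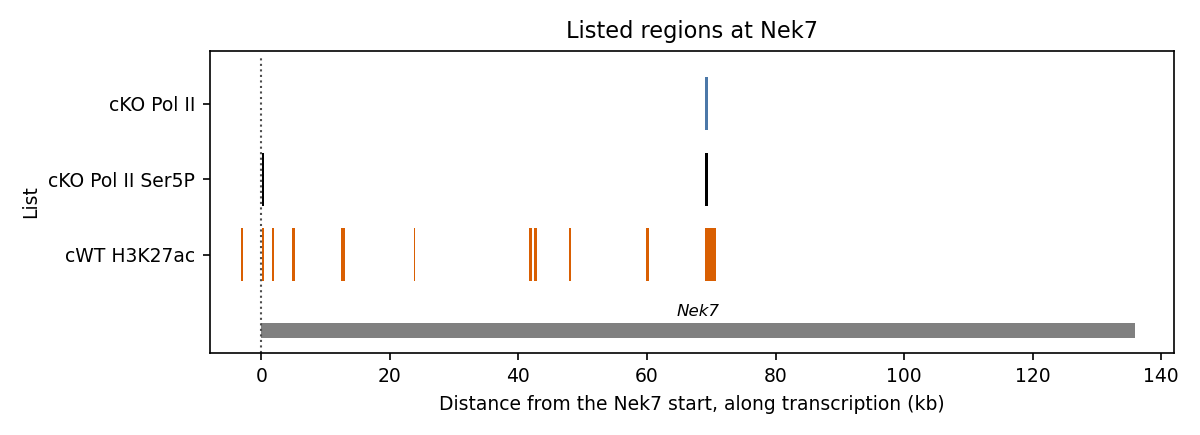
Listed regions at Nek7, drawn to scale by distance from its start (dotted line) along transcription, in kb, for the cKO Pol II, cKO Pol II Ser5P and cWT H3K27ac lists, with the gene span as a grey bar. The H3K27ac regions of cWT lie from 3.06 kb before the start to 70.3 kb after it, and at 69 kb Pol II and Pol II Ser5P regions of cKO coincide with 1 of them.

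The number of regions, for which Nek7 was chosen, was high for a gene of this length, while most of the single regions ranked low in their list. The comparisons with other genes here describe that choice and test nothing. Of the 21887 protein-coding genes 7.47% are longer than Nek7. Among 1439 genes with spans between 100 and 200 kb, 590 (41.0%) carried H3K27ac regions of the cWT list, with a median of 2 regions, and the highest count after Nek7 was 8. Within its span Nek7 held 12 regions, 8.83 per 100 kb, the fifth highest density among the 87 genes with at least 5 such regions, whose median was 2.46 and highest value 18.7. The regions covered 3.83% of the span. By deposited p-value they ranked between 942 and 6884 of 6995, with a median at 73.6% of the list from the top. Their median width of 369 bp and median signal of 7.86 were below the medians of that list, 435 bp and 11.7, although the signal of the pair near 70 kb, 17.6, was at or above that of 91.9% of the list. Region names carry numbers in genome order, from 750 to 764 at Nek7, and 2 of these 15 numbers were not listed. Over the whole cWT H3K27ac list 35.1% of the numbers were listed, and a run that starts and ends on a listed region is denser by construction.

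**Figure D3:**
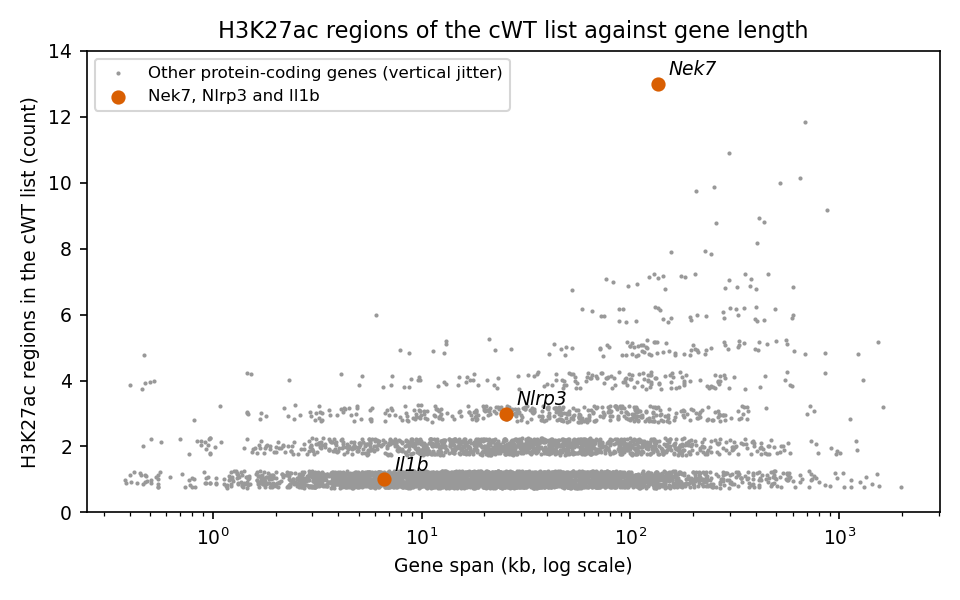
H3K27ac regions in the cWT list per protein-coding gene with at least 1 such region (vertical axis, count) against gene span (horizontal axis, kb, log scale), with Nek7, Nlrp3 and Il1b in colour. Nek7 is at 13 regions and 135.9 kb, while the other genes with 9 to 12 regions are all longer.

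Polymerase at Nek7 was listed for cKO alone, at 2 positions. For cKO, Pol II Ser5P at chr1:138619303-138619601, 156 to 454 bases after the start, shared 198 bases with the H3K27ac region of the cWT list there. Near 69 kb, a Pol II region (chr1:138550221-138550724) and a Pol II Ser5P region (chr1:138550303-138550717) of the cKO lists lay inside the best ranked of the 13 H3K27ac regions, sharing 504 and 415 bases with it. The other 11 H3K27ac regions of Nek7 overlapped no listed region of another antibody. Pu.1 and H3K4me3 had no listed region at Nek7 in cKO or cWT. Genes with the most similar counts over the 10 lists, by the sum of absolute differences, were Zfhx3 (distance 4), Camk2d, Gnaq and Nav2 (5 each) and Marchf10 (6). These 5 genes had 7 to 12 H3K27ac regions in the cWT list and 1 Pol II region in the cKO list, except Gnaq with 2. Their spans lay between 96.9 and 682.3 kb. Regions of different antibodies overlap in part, so the 10 lists are not independent points.

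Nlrp3, the sensor (chr11:59541569-59566955, plus strand), had 5 regions in cKO lists and 4 in cWT lists, all overlapping its span, and the antibodies lay in separate parts of the gene. Pu.1 and polymerase were at the 2 RefSeq starts, 59541569 and 59542686, and H3K27ac was in the distal part. At the first start, the cKO lists held Pol II Ser5P at chr11:59541582-59541861 and Pu.1 at chr11:59541641-59541977, and the cWT list held Pol II at chr11:59541523-59541878. The cWT Pol II region shared 280 bases with the cKO Ser5P region and 238 with the cKO Pu.1 region. It ranked 393 of 394 in its list by deposited p-value, while its signal of 15.5 was at or above that of 84.5% of the list.

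At the second start, whose sequence with 3 GAGGAA matches is given above, all 3 regions were in cKO lists. Pol II was at chr11:59542237-59542697, Pol II Ser5P at chr11:59542332-59542953 and Pu.1 at chr11:59542462-59542730. The Pu.1 region lay wholly inside the Ser5P region and shared 236 bases with the Pol II region. These 3 ranked in the upper part of their lists, at 992 of 4647 for Pol II, 1239 of 6163 for Ser5P and 258 of 1017 for Pu.1. The Pu.1 region of the first start ranked 905 of 1017. Pol II at Nlrp3 was thus listed for cKO at the second start and for cWT at the first, and no listed Pol II region of cKO overlapped the cWT one.

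The 3 H3K27ac regions, all in the cWT list, were at chr11:59555433-59555866, chr11:59561611-59562207 and chr11:59562648-59563240, 14.1, 20.3 and 21.4 kb after the first start. None overlapped a listed region of another antibody. Their numbers ran from 2759 to 2761 without a gap. No H3K27ac region of cKO or cWT was listed at the starts, and H3K4me3 was not listed at the gene.

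**Figure D4:**
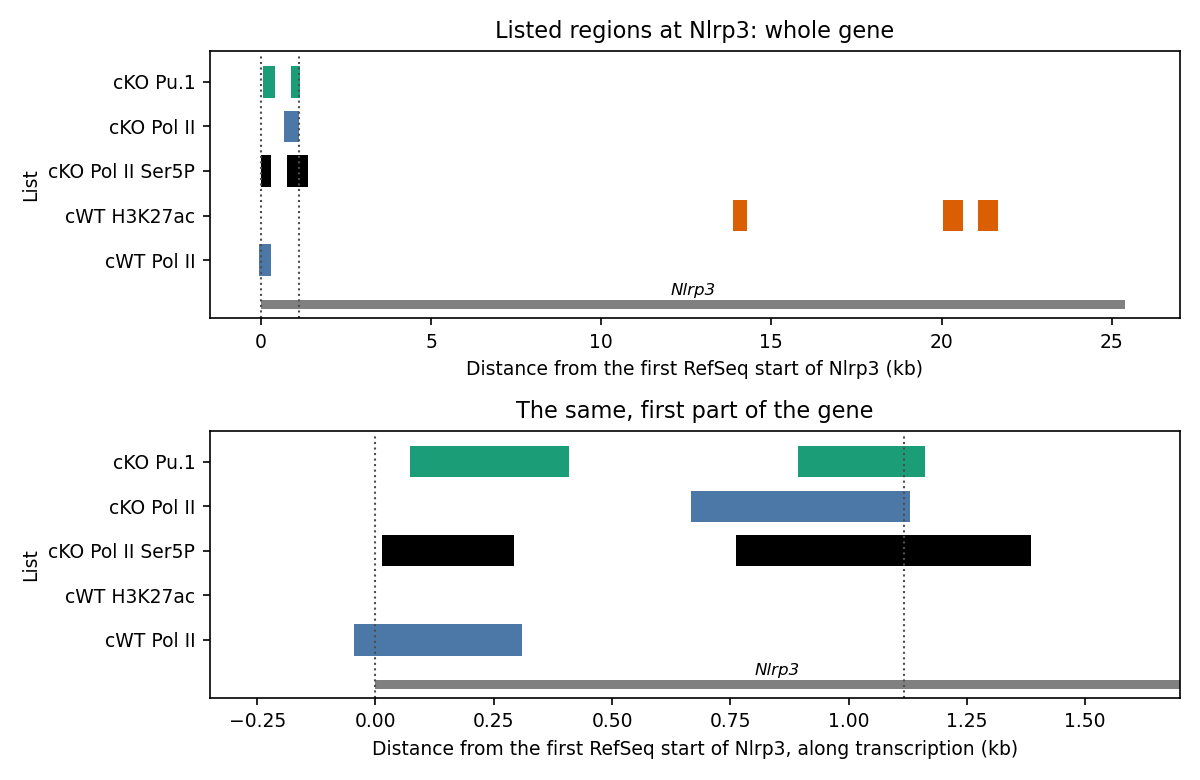
Listed regions at Nlrp3 by list, to scale, against distance from the first RefSeq start in kb (upper panel, whole gene; lower panel, first part), with dotted lines at both starts. Pu.1, Pol II and Pol II Ser5P of cKO lie at the starts, the cWT Pol II region at the first start alone, and the cWT H3K27ac regions 14.1 to 21.4 kb downstream.

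Il1b, which encodes the interleukin-1 beta precursor (chr2:129364569-129371164, minus strand), had 4 regions in cKO lists and 1 in cWT lists, all before its start. Pol II and Pol II Ser5P of the cKO lists lay together at 2 places. The nearer place held Pol II at chr2:129373306-129373748 and Ser5P at chr2:129373474-129373849, sharing 275 bases, with the nearest edges 2142 and 2310 bases before the start. The farther held Ser5P at chr2:129380142-129381206 and Pol II at chr2:129380212-129381248, sharing 995 bases, 8978 and 9048 bases before the start. These were the widest regions of the 6 genes, 1065 and 1037 bp, at or above the width of 99.3% of the Ser5P list and 99.5% of the Pol II list. They were also the best ranked, 151 of 6163 for Ser5P and 79 of 4647 for Pol II, with deposited p-values of 0.0836 and 0.131. Of the 37 regions only these 2 carry the word primary in their names, as do 4.05% of all regions. The H3K27ac region of the cWT list, chr2:129387623-129387985, lay 16459 bases or more before the start and overlapped none of them. No polymerase region was listed on the Il1b promoter window, which held the TATA box letters TATAAA at bases -31 to -26 (in 13.6% of windows). These base positions count from the start in the promoter table, 129371139, whereas the distances of regions count from the end of the gene span, 129371164.

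Casp1, the protease of the complex (chr9:5298517-5307281, plus strand), had 3 regions in cKO lists and 1 in cWT lists, but none lay in the gene. All 4 lay 1538 to 1907 bases beyond its far end and had Casp4 as the nearest gene. Casp4, which encodes caspase-11, the sensor caspase that mouse cells use in the noncanonical inflammasome, starts at 5308849. The cKO lists held Pol II at chr9:5308819-5309201 and Pol II Ser5P at chr9:5308836-5309220, both over the Casp4 start, sharing 366 bases. H3K4me3 was listed for both genotypes there, at chr9:5309188-5309537 in the cKO list and chr9:5308976-5309276 in the cWT list. The 2 H3K4me3 regions overlapped by 89 bases, so H3K4me3 was listed as specific to each genotype at partly the same bases. Such overlap between the 2 lists of 1 antibody was rare for H3K4me3, in 44 regions (3.31%) of cKO and 45 (5.40%) of cWT. Casp1 itself had no listed region in its span or at its own start.

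Gsdmd, the pore-forming substrate (chr15:75862144-75867408), had 2 Pu.1 regions in the cKO list and nothing in any cWT list. They abutted at chr15:75857329-75857591 and chr15:75857592-75857764, 4380 bases or more below the lower-coordinate end of the gene, and share 1 signal value, 15.9. Merged within 1 kb they count as 1. They ranked 335 and 568 of 1017. No polymerase or histone mark was listed at Gsdmd. Pycard, which encodes the adaptor ASC (chr7:127991373-127993867, minus strand), had a single region, Pol II of the cKO list at chr7:127992791-127993225, 642 to 1076 bases after its start. It ranked 3521 of 4647 and overlapped no other listed region. The promoter window of Pycard held GAGGAAGT, on the other strand at bases -44 to -37, under no listed region.

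**Figure D5:**
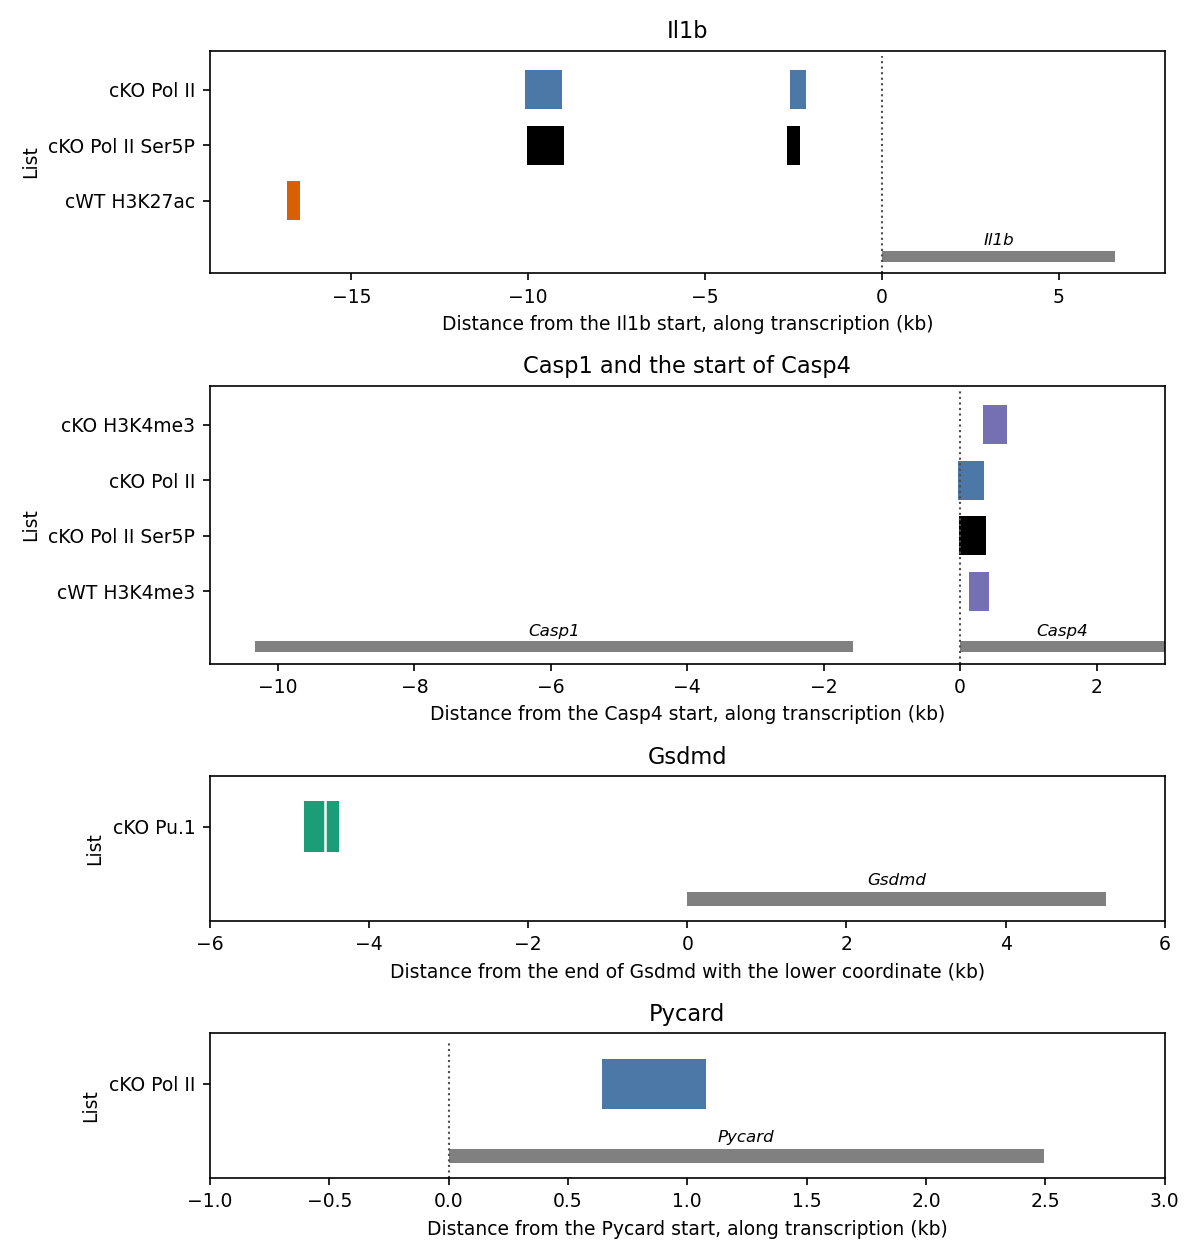
Listed regions at Il1b, at Casp1 with the start of Casp4, at Gsdmd and at Pycard, to scale, against distance in kb from the point named on each axis; grey bars are gene spans and dotted lines starts. Il1b has paired Pol II and Pol II Ser5P regions of cKO upstream, and the Casp1 regions all lie at Casp4; a white line parts the abutting Gsdmd regions.

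The 37 regions formed 25 separate sites, of which 7 held regions from more than 1 list: 2 at Nek7, 2 at Nlrp3, 2 at Il1b and 1 at Casp4. Overlap with a region of another antibody was counted from the same coordinates that assigned regions to genes, so it is a description. All 7 Ser5P regions of the cKO lists had such an overlap (55.3% over that list), as did 5 of 6 Pol II regions of cKO (64.4%), 2 of 4 Pu.1 regions of cKO (48.2%) and 2 of 17 H3K27ac regions of cWT (1402 of 6995 over that list). Regions at 1 gene are not independent, and these shares were not tested. Of the 37 regions, 25 lay in a gene span and 14 within 2 kb of an end of their gene. The 14 include the 4 regions assigned to Casp1, which lie beyond its far end, at Casp4. The same shares over all listed regions were not computed. At the edge of the rule, the farthest region inside it lay 16459 bases from Il1b, and the nearest region outside it lay 14028 bases from Gsdmd, 37.0 kb from Casp1, 44.2 kb from Il1b, 64.5 kb from Pycard, 179 kb from Nek7 and 252 kb from Nlrp3.

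Other genes of the pathway were counted by the same rule in 6 lists, and 60 of their 78 genes had at least 1 region, against 49.6% of protein-coding genes (40.2% in a cKO list and 30.2% in a cWT list). The pathway lists were drawn up with results known, so the shares are descriptions. Of 10 other NEK kinases, 8 had a region, 6 in cKO lists and 5 in cWT lists. Nek6, the closest relative of Nek7, had 7: in cKO lists 2 for Pu.1 and 1 each for Pol II and Pol II Ser5P, and in the cWT list 3 for H3K27ac. Nek3, Nek4, Nek8, Nek9 and Nek10 had 2 each. Nek7 and Nek6 thus had the same kinds of list for H3K27ac and polymerase, while Pu.1 was listed at Nek6 alone of the pair.

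Of 14 other inflammasome sensors, 9 had a region, 4 in cKO lists and 6 in cWT lists. When gene spans alone were counted, 4 of the 14 had one, against 7919 of the 21887 protein-coding genes. Naip2, a receptor for bacterial proteins, had 3, and Aim2, a sensor of cytosolic DNA, Naip5 and Nlrc4 had 2 each. Of 9 caspases and pore proteins, 7 had a region, 6 in cKO lists and 6 in cWT lists. Casp4 and Ninj1, which ruptures the membrane late in cell death, had 5 each, Gsdma had 4, and Casp8 and Gsdme had 2 each. Of the 5 at Casp4, 4 are the same regions that were assigned to Casp1 above. Of 11 IL-1 family genes, 7 had a region, 2 in cKO lists and 6 in cWT lists. Il1a, the neighbour of Il1b that encodes interleukin-1 alpha, had 5: in cKO lists 1 each for Pol II and Pol II Ser5P, and in cWT lists 2 for H3K27ac and 1 for H3K4me3. Il18, the other cytokine that caspase-1 cuts, had 2, both H3K27ac of the cWT list, as did Il18bp, whose product binds it.

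Of 14 genes of priming, 11 had a region, 9 in cKO lists and 9 in cWT lists. Irak2, a kinase of Toll-like receptor signalling, had 7, with 4 Pol II Ser5P regions in the cKO list and 3 H3K27ac regions in the cWT list. Tnf had 6, with 2 Pol II and 3 Pol II Ser5P regions in the cKO lists and 1 H3K27ac region in the cWT list. Cd14 and Nfkb1 had 4 each, and Myd88 and Tlr2 had 3 each. Of 20 triggers and regulators of NLRP3, 18 had a region, 15 in cKO lists and 14 in cWT lists. Tnfaip3, an inhibitor of NF-kB signalling, had 8, of which 1 Pu.1, 2 Pol II and 3 Pol II Ser5P regions were in cKO lists and 2 H3K27ac regions in the cWT list. Kcnk13, a potassium channel, had 6, with 2 Pol II Ser5P regions in the cKO list and 4 H3K27ac regions in the cWT list. Ptpn22 had 5, and Clic4 and Sirt2 had 4 each. P2rx7, the ATP-gated channel that triggers NLRP3, also had 4, all in cKO lists: 2 for H3K27ac and 2 for Pol II Ser5P. Of the 78 genes, P2rx7 and Tlr4, a receptor for bacterial lipopolysaccharide named here after its values were seen, were those with H3K27ac regions in the cKO list (2 and 1) and 0 of them in the cWT list.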

How the data were processed

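The deposited files are 10 region lists, each specific to 1 genotype for 1 antibody, from CUT&Tag of sorted microglia, 3 replicates per group per the labels. Per the submitters' processing notes, the tools named are HOMER 4.11, bedtools 2.30.0, MACS2 2.2.7.1 and Bowtie2 2.4.4, and the builds GRCm38 and mm10; they do not say how replicates were combined or specificity was decided. Per region the authors deposited a signal, a score and a p-value, told apart by column order. An adjusted p-value, 1 column in each of the 10 lists, was not used. The deposited score equals the whole part of 125 times the negative log2 of the deposited p-value, capped at 1000, for all 22399 regions. Depth is unknown.

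Regions were assigned to genes with RefSeq GRCm38.p6 (21887 protein-coding genes; 10 kb around the span, or nearest end within 100 kb) in Python 3.11.15 with numpy 2.4.6, pandas 2.3.3, scipy 1.17.1 and matplotlib 3.10.9. Overlap means at least 1 shared base. Ranks follow the deposited p-value within a list. The assignment was tested on simulated regions. RefSeq promoters were matched for 5 of the 6 genes. No test between genotypes was made, since the lists hold no values per replicate. The genes, pathway lists and markers were chosen with earlier results of these data known. Of each pathway list, up to 6 genes with the most regions are named, ties taken alphabetically. The values of 1 gene that this rule names are not reported here. Alternatives for the assignment, region width, merging, deposited p-value and overlap were computed.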

Additional observations from a re-analysis of the deposited data

How the results depend on the processing

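No region at the 6 genes passes a deposited p-value of 0.05, so under that threshold the counts become 0 in cKO lists (18 as reported), 0 in cWT lists (19) and 0 for H3K27ac of the cWT list at Nek7 (13). Keeping the better ranked 50% of each list left 13 regions in cKO lists and 7 in cWT lists, and 3 of the 13 H3K27ac regions at Nek7. Counting gene spans alone left 9 regions in cKO lists and 16 in cWT lists. Regions near a gene end numbered 9 within 1 kb and 22 within 5 kb, against 14 within 2 kb. The counts within 2 and 5 kb include the 4 Casp1 regions that lie at Casp4. These settings remove or add regions by construction. The Nek7 count was 10 with regions within 1 kb merged and 10 without regions under 300 bp. Of 123 recomputed values of single lists or genes, 85 stayed within 1.5 times the reported value and 38 did not, all 38 lower. Leaving out regions shared by both genotype lists of an antibody, chosen after seeing the data, gave 17 in cKO lists and 18 in cWT lists. No paired analysis was possible because the lists hold no values per replicate, and for the same reason no replicate could be left out.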
